A study of Mus musculus with 10 samples.

Results

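Expression of 39 genes of TGF-beta and BMP signaling was compared between WT31 and WT31_P5IV melanoma cells. The genes were listed by name for their place in the pathway, with no threshold on their values, though earlier results of these data were known: ligands, receptors, Smads, Id genes, latent TGF-beta binding proteins and regulators. All 39 were found among the 55385 gene identifiers of the series, and 35 of them were among the 13620 genes with enough counts for a test. WT31 is a melanoma line of mice that carry Tyr::NrasQ61K/° and lack INK4a, and WT31_P5IV is the subline derived from it by 5 rounds of tail vein injection, excision of liver metastases and re-culture. Both groups carry the Nras transgene, which the tyrosinase promoter directs to pigment cells, and the INK4a deletion. Both were untreated and grown in RPMI medium with FCS, so the RNA came from cultured cells and not from metastases. Each group had 5 libraries, labelled as biological replicates of 1 line each. Nothing in the labels says that they came from separate cultures, and the p-values below measure the spread between these libraries.

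Ligands of this family are secreted dimers. They bring type II and type I receptor kinases together, and the type I receptor phosphorylates the receptor-regulated Smads: Smad2 and Smad3 after TGF-beta, activin or Gdf11, and Smad1 and Smad5 after BMPs. These join Smad4 and enter the nucleus, where Id genes are classical targets of the BMP arm and the inhibitory Smads close feedback loops. TGF-beta leaves the cell in a latent complex, usually bound to an Ltbp protein, and has to be freed before it can act. In the melanocyte lineage TGF-beta is known as a growth-restraining and differentiation-modulating signal to which melanoma cells respond variably.

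Libraries held 24255389 to 25750639 estimated counts, so that 3 counts, taken here as the limit of detection, equalled 0.114 to 0.129 counts per 1000000 counts of a library (CPM, on library sizes scaled by TMM). The limit covers counting error only. The first principal component held 79.5% of the variance between libraries and separated the groups. All 10 melanocyte markers examined had enough counts for a test, with a summed level of 19035 to 20321 CPM in WT31 and 24477 to 28298 CPM in WT31_P5IV. Of these, 5 were higher (Pmel, Dct, Slc45a2, Kit and Tyr, with log2 fold changes of 1.22, 0.80, 0.68, 0.43 and 0.25) and 2 lower (Tyrp1 and Sox10, with -0.96 and -0.14). Markers of fibroblasts and stellate cells summed to 3.44 to 4.39 CPM in WT31 and to 4.92 to 6.01 CPM in WT31_P5IV. Of these 10 markers 3 rose (Col1a1, Col3a1 and Acta2). Pdgfra was detected in every library of both groups, with 34 to 44 counts in WT31 and 30 to 45 in WT31_P5IV, and Pdgfrb had 6 to 23 and 9 to 14 counts; neither passed. Des, Lrat and Dcn had at most 8 counts, and Lum and Reln at most 3, in any library. Macrophage and leukocyte markers summed to 4.92 to 6.72 against 4.34 to 6.32 CPM, and within them Cd68 rose (log2 fold change 1.45, adjusted p = 1.16e-05) and Lyz2 fell (-2.01, adjusted p = 7.64e-09), while Ptprc, Adgre1, Cd14, Clec4f and Itgam had at most 3 counts in any library. Endothelial markers summed to 0.275 to 0.681 against 0.362 to 0.841 CPM, and hepatocyte markers summed to 0.303 to 0.588 against 0.442 to 1.30 CPM.

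The sequences around the start sites of Ltbp4, 3 Id genes and Smad6 are shown first. RefSeq start sites (GRCm38.p6) were matched for 29 of the 39 members, with 37 windows from 250 bases before to 50 bases after the start. Each was searched on both strands for GTCTAGAC, a palindrome of Smad-binding sites, for CAGACA, the Smad box, and for GGCGCC, a GC-rich element of BMP-responsive promoters; none of these motifs contains another. Capitals mark the matches. Windows are written 5′ to 3′ on the strand of the gene. For Ltbp4, the member with the largest rise, the windows of a start region at the 5′ end of the gene and of one further into it are given (chr7:27337563-27337862 and chr7:27333599-27333898, both on the minus strand). For the Id genes, the windows of Id2 (chr12:25096043-25096342, minus strand), Id3 (chr4:136143572-136143871, plus strand) and Id4 (chr13:48260866-48261165, plus strand) are given. Smad6 (chr9:64022010-64022309, minus strand) is shown because it was the 1 searched member whose window held the palindrome.
Ltbp4, first start: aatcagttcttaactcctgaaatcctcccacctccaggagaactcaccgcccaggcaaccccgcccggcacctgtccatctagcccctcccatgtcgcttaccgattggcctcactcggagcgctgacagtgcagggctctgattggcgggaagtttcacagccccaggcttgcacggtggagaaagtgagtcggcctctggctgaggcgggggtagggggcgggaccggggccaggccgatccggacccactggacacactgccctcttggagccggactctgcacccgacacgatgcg
Ltbp4, second start: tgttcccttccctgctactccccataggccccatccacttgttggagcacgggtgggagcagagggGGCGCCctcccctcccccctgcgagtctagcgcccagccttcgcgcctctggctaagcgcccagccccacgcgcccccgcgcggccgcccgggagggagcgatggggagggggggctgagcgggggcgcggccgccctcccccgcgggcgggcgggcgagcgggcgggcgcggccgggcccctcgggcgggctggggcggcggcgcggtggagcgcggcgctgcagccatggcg
Id2: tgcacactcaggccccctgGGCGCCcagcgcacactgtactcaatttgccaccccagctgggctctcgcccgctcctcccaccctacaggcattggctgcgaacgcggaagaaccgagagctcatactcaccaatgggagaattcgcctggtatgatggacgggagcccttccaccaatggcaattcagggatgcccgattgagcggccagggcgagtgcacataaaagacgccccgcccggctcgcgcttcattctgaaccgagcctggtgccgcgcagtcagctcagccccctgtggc
Id3: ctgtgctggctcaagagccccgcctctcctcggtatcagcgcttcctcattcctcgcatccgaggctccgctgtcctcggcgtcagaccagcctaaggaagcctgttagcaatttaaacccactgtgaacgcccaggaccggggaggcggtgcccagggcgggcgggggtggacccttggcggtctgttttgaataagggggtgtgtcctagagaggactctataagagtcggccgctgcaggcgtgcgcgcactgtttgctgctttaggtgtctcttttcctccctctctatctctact
Id4: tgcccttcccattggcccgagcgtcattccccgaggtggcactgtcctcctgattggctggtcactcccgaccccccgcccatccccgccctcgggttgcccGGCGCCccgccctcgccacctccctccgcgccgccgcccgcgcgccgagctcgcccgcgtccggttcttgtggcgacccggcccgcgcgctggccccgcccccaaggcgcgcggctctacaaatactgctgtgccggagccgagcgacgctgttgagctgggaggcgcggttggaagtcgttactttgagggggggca
Smad6: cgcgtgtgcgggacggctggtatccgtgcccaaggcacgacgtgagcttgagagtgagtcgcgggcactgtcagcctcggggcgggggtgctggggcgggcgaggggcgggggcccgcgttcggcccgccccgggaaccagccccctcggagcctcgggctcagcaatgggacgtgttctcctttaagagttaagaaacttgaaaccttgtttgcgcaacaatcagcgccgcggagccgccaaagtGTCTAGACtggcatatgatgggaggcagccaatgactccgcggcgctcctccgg

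The palindrome of Smad6 began 4 bases before the start, at -4. It occurred in 1 of the 37 windows of the searched members (2.7%) and in 0.213% of the 32851 windows of the table. Windows on chromosome 18 were not left out of the latter. GGCGCC was present in 13 of the 37 windows (35.1%), belonging to 11 members, among them Id2 (at -231), Id4 (at -148) and the second start of Ltbp4 (at -184), and in 11.9% of all windows. Windows of 1 gene overlap in part, and the shares were not tested against each other. CAGACA was present in 7 of the 37 windows (18.9%), of 7 members, and in 21% of all windows. The window of Id3 held none of these letters, nor did those of Tgfb1, Gdf11, Bmp4, Inhba and Acvr1. A match is a run of letters and not evidence of binding.

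The quasi-likelihood test of edgeR, with a threshold of 0.05 on the adjusted p, called 13 of the 35 tested members higher in WT31_P5IV and 11 lower, while 11 did not pass. The share of higher calls among all tested genes was 34.6% and that of lower calls 33.9%, against 37.1% and 31.4% of the members. The members were thus called about as often as any other gene, and their number is not a result about the pathway. By role, and as a description with no test between roles, all 3 TGF-beta ligands, all 3 Ltbp genes and 5 of 8 tested type I and type II receptors were higher. Both tested genes of the activin and Gdf11 group, 3 of 4 Id genes, 3 of 7 Smads and 1 of 2 co-repressors were lower, and the others of these groups did not pass. BMP ligands and Smurf ligases were split, with 1 higher and 1 lower in each. Beyond a log2 fold change of 1 in either direction, Ltbp4 was the member called higher (5.49% of all tested genes were) and Bmp4 and Inhba were called lower (3.69% of all tested genes were). The median log2 fold change of the tested members was -0.06, beside 0.01 for all tested genes. In bulk RNA, fewer cells that express a gene and less RNA per cell cannot be told apart. On the scale of TPM, which divides by transcript length and sums to 1000000 in each library, 9 members were called higher and 18 lower; there the log2 fold changes of all genes are shifted by a median of -0.17.

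**Figure D1:**
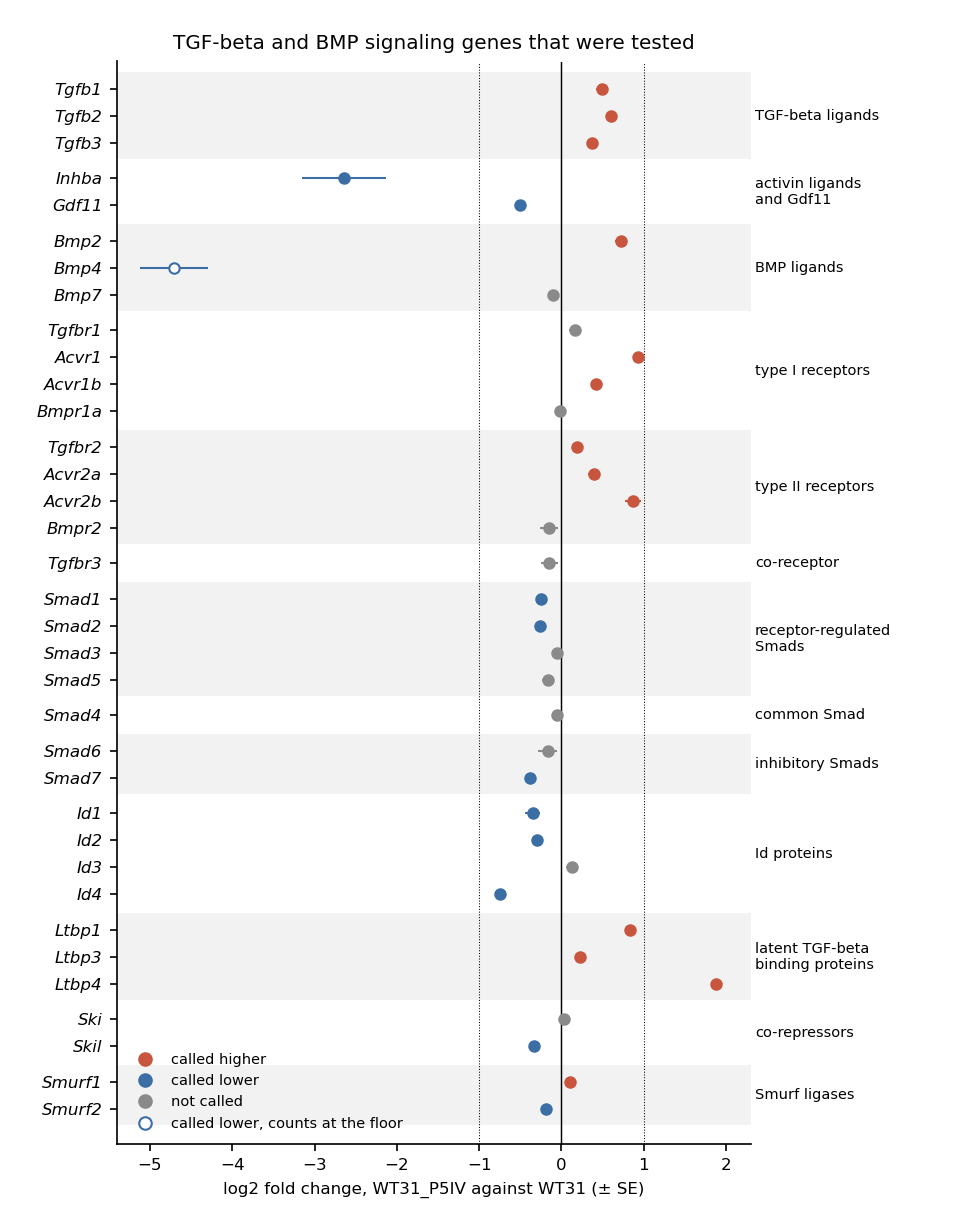
Log2 fold change of WT31_P5IV against WT31 (x axis, ± SE from edgeR) for the 35 tested members (y axis), grouped by role, with dotted lines at -1 and 1. Points show members called higher, called lower or not called; the open point is Bmp4, whose counts in WT31_P5IV lie at or under the limit of detection. Ltbp4 is the 1 member to the right of 1, and Bmp4 and Inhba lie to the left of -1.

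All 3 TGF-beta ligands rose. Tgfb1, the isoform with the highest level per length, had 37.9, 35.3, 39.3, 42.7 and 44.1 CPM in the WT31 libraries 1 to 5 and 56.5, 60.2, 57.1, 57.8 and 47.8 CPM in those of WT31_P5IV. The groups did not overlap, though WT31_P5IV library 5 came close to the highest WT31 library. The rise was 1.40-fold (log2 fold change 0.49, SE 0.07, adjusted p = 1.5e-05). Tgfb2, an isoform whose affinity for receptors depends on the co-receptor Tgfbr3, went from 21.3 to 25 CPM to 33.3 to 37.3 CPM, with a log2 fold change of 0.60 (SE 0.05, adjusted p = 1.51e-07). Tgfb3 went from 18.6 to 20.1 CPM to 23.8 to 25.9 CPM, with a log2 fold change of 0.37 (SE 0.04, adjusted p = 3.1e-06). The Tgfb3 values are uncertain to the extent that 9.96% of its 31-base words, the length kallisto matches, occur in another gene. Per length, Tgfb1 held 64.8% ± 2.32 (SD, n = 5) of the summed TPM of the 3 isoforms in WT31 and 64.9% ± 2.19 in WT31_P5IV, so the make-up of the ligands stayed within the spread between libraries while their summed level went from 48.6 ± 2.15 to 58.9 ± 3.22 TPM.

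The latent TGF-beta binding proteins rose together with the ligands, and Ltbp4 had the largest rise of any member. Ltbp proteins tether latent TGF-beta to the matrix; Ltbp1 and Ltbp3 bind the latent complex of all isoforms, and Ltbp4 is a partner chiefly of latent Tgfb1 and of elastic fibre assembly. Ltbp4 (chromosome 7, positions 27305136 to 27337692, minus strand) had 21.5, 23.6, 23.1, 22.7 and 24.4 CPM in WT31 and 90.0, 85.4, 86.2, 83.4 and 80.0 CPM in WT31_P5IV. Every WT31_P5IV library thus lay far above every WT31 library, with little spread in either group. The rise was 3.69-fold (log2 fold change 1.88, SE 0.04, adjusted p = 1.21e-13), and 0 of the 31-base words of its transcripts occur in another gene. Ltbp1 went from 97.9 to 114 CPM to 171 to 194 CPM, a 1.78-fold rise (log2 fold change 0.83, SE 0.05, adjusted p = 2.81e-09). Ltbp3, the most abundant of the 3 per length, had 257, 248, 262, 265 and 268 CPM in WT31 and 310, 311, 320, 289 and 292 CPM in WT31_P5IV. These groups did not overlap either, but the rise was small, at 1.17-fold (log2 fold change 0.23, SE 0.04, adjusted p = 9.12e-05). On the TPM scale the log2 fold change of Ltbp3 was -0.01, and 0.16 relative to the median shift of all genes. In shares of summed TPM, Ltbp3 fell back from 72.3% ± 1.44 to 56.1% ± 0.561, and Ltbp4 went from 6.85% ± 0.554 to 18.6% ± 1.09 (SD, n = 5). The summed level of the 10 fibroblast and stellate cell markers also rose, from 3.44 to 4.39 CPM to 4.92 to 6.01 CPM. Of the 5 markers tested, Col1a1, Col3a1 and Acta2 were called higher, and Pdgfra (-0.04) and Pdgfrb (-0.19) did not pass. The part of such cells in the rise of the Ltbp genes was not tested.

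**Figure D2:**
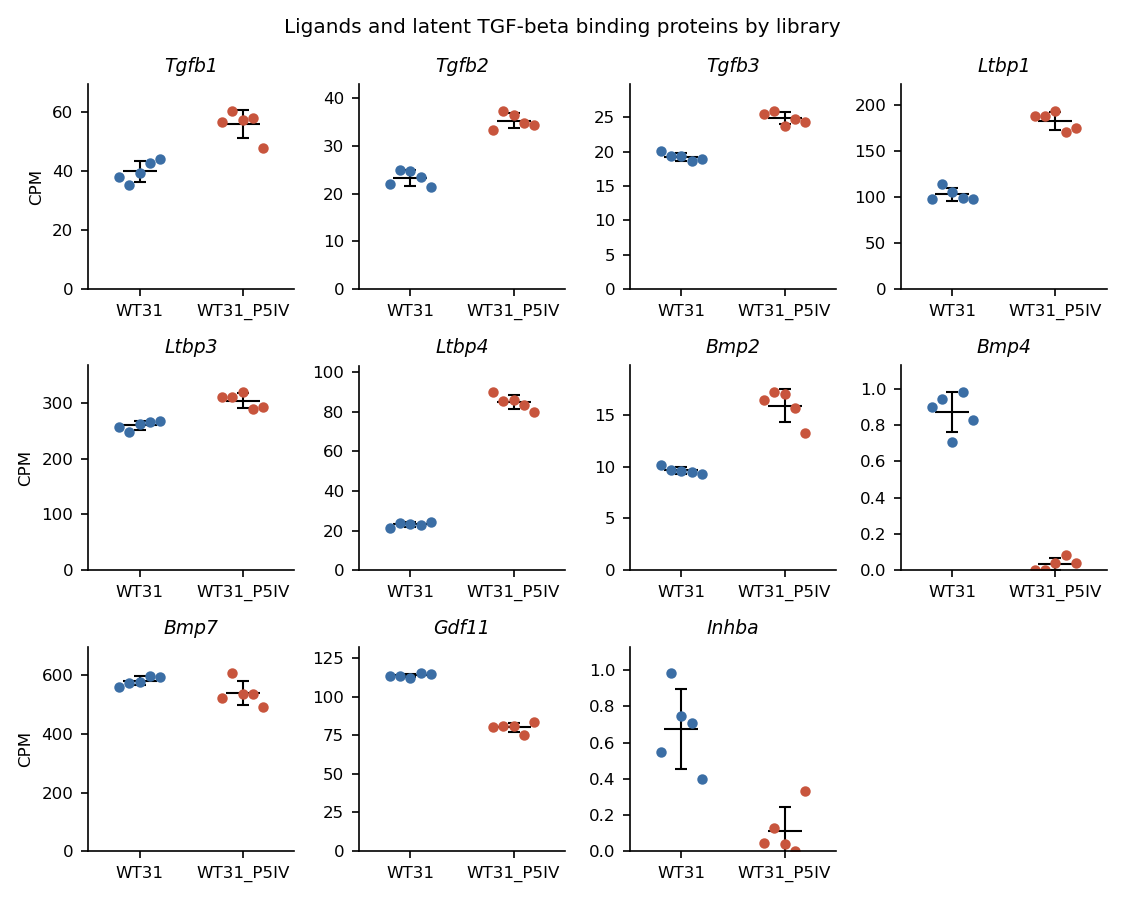
Level of 8 ligands and 3 Ltbp genes in CPM (y axes, each from 0) in the 5 libraries of WT31 and of WT31_P5IV (points), with mean and SD (bars). The groups are apart in all panels except that of Bmp7, where they overlap.

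Among activin ligands and Gdf11, the expressed members fell. Gdf11, which signals through activin receptors to Smad2 and Smad3, had 113, 113, 112, 115 and 114 CPM in WT31 and 80.2, 81.0, 80.8, 75.3 and 83.5 CPM in WT31_P5IV. The WT31 libraries were nearly equal and all of them lay above those of WT31_P5IV. The decrease was 1.42-fold (log2 fold change -0.50, SE 0.03, adjusted p = 9.69e-09). Inhba, whose product forms activin A, was close to the limit of detection, with 14, 26, 19, 18 and 10 counts in WT31 and 1, 3, 1, 0 and 8 counts in WT31_P5IV. The groups did not overlap, but WT31_P5IV library 5 held 8 of the counts of its group and came near the lowest WT31 library. Inhba was called lower (adjusted p = 0.000337), but 4 of the 5 WT31_P5IV libraries were at or under the limit of detection, so the fitted log2 fold change of -2.65 (95% interval -3.65 to -1.64) is not a firm size and was -3.70 without WT31_P5IV library 5. Inhbb had at most 1 count in any library and was not tested.

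BMP ligands moved in different directions. Bmp7 had the highest level per length of all members, at 250 ± 5.97 TPM in WT31 and 205 ± 12.3 TPM in WT31_P5IV, and held 97.6% and 97.0% of the summed TPM of the 3 BMP ligands. In CPM it had 560, 574, 579, 598 and 595 in WT31 and 523, 608, 538, 536 and 493 in WT31_P5IV. The groups overlapped through WT31_P5IV library 2, which was the highest of all 10. The log2 fold change was -0.11 (95% interval -0.20 to -0.01, adjusted p = 0.0628), and it passed under DESeq2 (-0.11), voom without scaling (-0.18), a filter of 1 count (-0.16) and the TPM scale (-0.28), and without WT31_P5IV library 2 (-0.16), WT31 library 1 (-0.13) or WT31 library 2 (-0.12). Voom without scaling shifted the log2 fold changes of all genes by a median of -0.07. Relative to the median shift on the TPM scale, Bmp7 stood at -0.12. Bmp2, a ligand of the same arm at 4.30 TPM in WT31, rose from 9.35 to 10.2 CPM to 13.3 to 17.2 CPM (log2 fold change 0.72, SE 0.07, adjusted p = 4.22e-07). Bmp4 (chromosome 14, positions 46383520 to 46390669) had 23, 25, 18, 25 and 21 counts in WT31 and 0, 0, 1, 2 and 1 counts in WT31_P5IV. All WT31_P5IV libraries were thus at or under the limit of detection, and Bmp4 was at least 6.98-fold lower, taking 3 counts as the level of each WT31_P5IV library (adjusted p = 1.31e-07). The antagonists Nog, which had at most 1 count in any library, and Grem1, which had at most 2, were not tested.

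On counts, the receptors that passed the test were higher. Acvr1, a type I receptor of BMPs that also binds activins, had 43.4, 42.4, 44.0, 42.9 and 42.8 CPM in WT31 and 78.9, 87.9, 85.1, 77.9 and 81.8 CPM in WT31_P5IV. There was a wide gap between the groups. The rise was 1.91-fold (log2 fold change 0.93, SE 0.04, adjusted p = 6.03e-11). Acvr1b, the activin type I receptor, went from 13.1 to 16.5 CPM to 18.3 to 21 CPM (log2 fold change 0.42, adjusted p = 6.46e-05). Tgfbr1, the TGF-beta type I receptor, and Bmpr1a, a BMP type I receptor, did not pass, with log2 fold changes of 0.16 (95% interval 0.02 to 0.30, adjusted p = 0.0559) and -0.02 (95% interval -0.13 to 0.09, adjusted p = 0.773). On the TPM scale Bmpr1a was called lower (-0.19), or -0.02 relative to the median shift. Bmpr1b had at most 3 counts in any library and was not tested. The share of Acvr1 in the summed TPM of the type I receptors went from 31.5% ± 1.89 to 45.4% ± 0.769, and that of Bmpr1a from 38.8% ± 0.722 to 28.8% ± 0.908 (SD, n = 5). Bmpr1a thus led per length in WT31 and Acvr1 in WT31_P5IV.

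**Figure D3:**
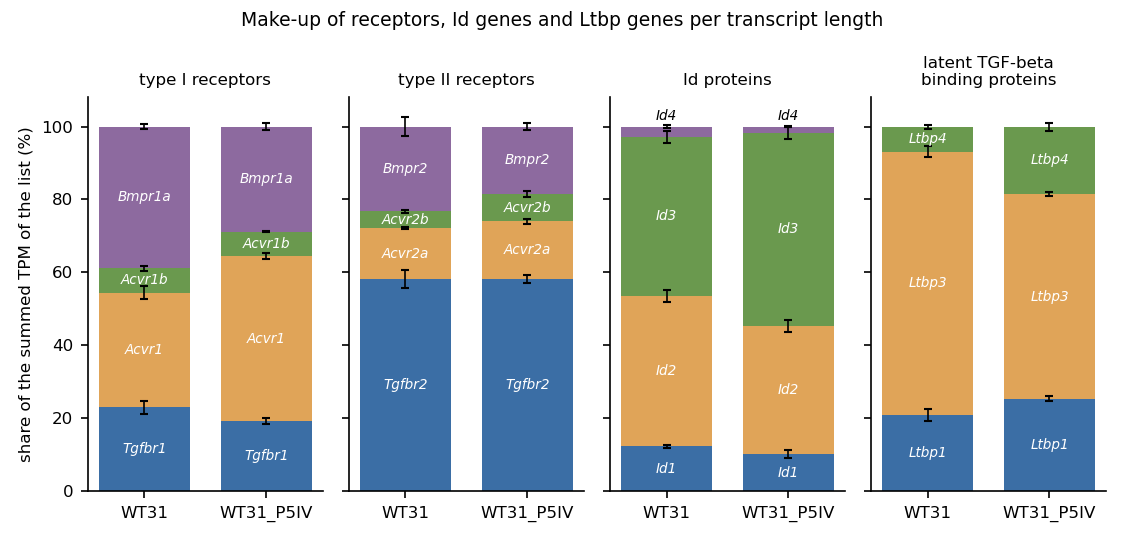
Mean share of each gene in the summed TPM of its group, in percent (y axis), for type I receptors, type II receptors, Id genes and Ltbp genes in WT31 and WT31_P5IV; error bars at the top of each segment are SD over 5 libraries, and genes under 1% are not drawn. The segment of Acvr1 grows from 31.5% to 45.4%, that of Id3 from 43.6% to 52.8% and that of Ltbp4 from 6.85% to 18.6%.

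Of the type II receptors, the 3 that bind TGF-beta or activins rose. Tgfbr2, the TGF-beta type II receptor and the most abundant of the 4 per length, had 101, 109, 107, 107 and 104 CPM in WT31 and 121, 129, 120, 113 and 119 CPM in WT31_P5IV. The groups lay side by side without overlap, and the rise was 1.14-fold (log2 fold change 0.19, SE 0.04, adjusted p = 0.000734). On the TPM scale its log2 fold change was 0.01 and did not pass, or 0.18 relative to the median shift. Acvr2b, an activin type II receptor at 2.43 TPM in WT31, went from 3.57 to 4.43 CPM to 6.01 to 8.28 CPM (log2 fold change 0.87, SE 0.10, adjusted p = 1.53e-06). Its relative Acvr2a went from 23.6 to 29.7 CPM to 30.9 to 35.7 CPM (log2 fold change 0.39, SE 0.07, adjusted p = 0.00012) and its call was lost on the TPM scale (0.20, or 0.36 relative to the median shift). It shares 7.32% of its words with another gene and overlaps Orc4 on the opposite strand, whose reads cannot be told apart from its own where the counting did not use strand. Bmpr2, the BMP type II receptor, did not pass (log2 fold change -0.16, 95% interval -0.37 to 0.06, adjusted p = 0.219) except with a filter of 1 count (-0.21), nor did the co-receptor Tgfbr3 (log2 fold change -0.15, 95% interval -0.34 to 0.05, adjusted p = 0.206), which passed without WT31_P5IV library 2 (-0.23) and on log2(TPM + 1) (-0.22). On log2(TPM + 0.1) Tgfbr3 stood at -0.30 and did not pass, or -0.13 relative to the median shift.

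Within WT31, values of Bmpr2, Bmpr1a, Smad5 and Tgfbr1 were highest in libraries 2 and 3, with 126 and 122 CPM of Bmpr2 against 83.6 to 92.3 CPM in the other WT31 libraries. All 4 genes have long transcripts. Across all genes, the 25% of genes with the longest transcripts deviated from the 25% with the shortest by 0.20 and 0.16 (median log2) in WT31 libraries 2 and 3, by -0.06, -0.12 and -0.18 in the other WT31 libraries and by -0.07 to 0.04 in those of WT31_P5IV. Without both libraries, 14 members were called higher and 12 lower, the log2 fold change of Tgfbr1 was 0.26 and passed (0.20 and 0.18 without library 2 or 3 alone, which also passed, as did 0.17 with the replicate block), and those of Bmpr2 and Bmpr1a were 0.05 and 0.03.

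Smads were lower where they changed. Smad2, which transmits TGF-beta and activin signals and was the most abundant receptor-regulated Smad per length, had 92.7, 94.6, 95.5, 86.8 and 85.1 CPM in WT31 and 77.3, 76.4, 77.7, 73.5 and 75.4 CPM in WT31_P5IV. The groups did not overlap, and the decrease was 1.20-fold (log2 fold change -0.26, SE 0.04, adjusted p = 4.83e-05). Smad1, of the BMP arm, was lower to the same degree, from 29.1 to 33.2 CPM to 24.6 to 27.4 CPM (log2 fold change -0.25, SE 0.05, adjusted p = 0.000328). Smad5, its partner, had a log2 fold change of -0.16 (adjusted p = 0.0551) and did not pass, but did without WT31 library 4 (-0.20), WT31 library 5 (-0.23) or WT31_P5IV library 5 (-0.19), under DESeq2 (-0.17), voom without scaling (-0.22) and a filter of 1 count (-0.22), and on the TPM scale (-0.29). Relative to the median shift on the TPM scale, Smad5 stood at -0.12. WT31 libraries 2 and 3 had 182 and 177 CPM of Smad5, against 135 to 155 CPM in the other WT31 libraries and 136 to 151 CPM in WT31_P5IV. Without both libraries Smad5 did not pass. Smad3 (log2 fold change -0.06, 95% interval -0.13 to 0.02) and the common Smad4 (log2 fold change -0.06, 95% interval -0.13 to 0.01) did not pass either, though both did with voom without scaling and, unadjusted for the median shift, on the TPM scale (-0.21 and -0.16). Relative to that shift, Smad3 and Smad4 stood at -0.04 and 0.01. Smad7, which blocks type I receptors and is itself induced by TGF-beta, had 25.1, 25.1, 25.1, 28.3 and 27.1 CPM in WT31 and 21, 20.03, 17.3, 21.1 and 20.8 CPM in WT31_P5IV. The groups did not overlap and the decrease was 1.30-fold (log2 fold change -0.38, SE 0.06, adjusted p = 5.39e-05). Smad6, the inhibitory Smad of the BMP arm and the gene whose start carries the palindrome, had 4.12 to 5.98 CPM in WT31 and 3.82 to 5.12 CPM in WT31_P5IV, which overlapped (log2 fold change -0.17, 95% interval -0.39 to 0.05, adjusted p = 0.197), though it passed without WT31 library 3 (-0.25) and on the TPM scale (-0.32, or -0.16 relative to the median shift).

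The Id genes encode helix-loop-helix proteins that bind basic helix-loop-helix factors and keep them from DNA. Id4 fell the most, from 23.2 to 25.7 CPM to 12.8 to 15.4 CPM, or 1.68-fold (log2 fold change -0.75, SE 0.06, adjusted p = 2.76e-08). Id1 fell from 19.5 to 25.4 CPM to 14.1 to 19.1 CPM (log2 fold change -0.35, SE 0.09, adjusted p = 0.00398), and the groups were barely apart. Id2 fell from 96.1 to 112 CPM to 82.3 to 94.5 CPM (log2 fold change -0.29, SE 0.05, adjusted p = 0.000107). Id3, the most abundant per length, did not follow them: it had 102, 93.5, 91.7, 109 and 124 CPM in WT31 and 116, 115, 106, 114 and 117 CPM in WT31_P5IV. WT31 libraries 4 and 5 lay within or above the range of WT31_P5IV, and the log2 fold change was 0.13 (95% interval -0.01 to 0.26, adjusted p = 0.114); it passed without WT31 library 5 (0.18) and with the replicate block (0.13). Per length, Id3 held 43.6% ± 1.64 of the summed TPM of the Id genes in WT31 and 52.8% ± 1.77 in WT31_P5IV, and Id2 held 41.3% ± 1.73 and 35.3% ± 1.63 (SD, n = 5). Among called members with a window, GGCGCC stood in those of Id2, Id4 and Smurf2, which fell, and of Acvr1b and the second start of Ltbp4, which rose. The windows of Gdf11 and Bmp4, which fell, and of Tgfb1 and Acvr1, which rose, held no match to any of the 3 motifs. CAGACA stood in windows of Tgfb2, Ltbp1, Ltbp3 and Smurf1, called higher, and of Smurf2, called lower; with so few genes these are descriptions.

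**Figure D4:**
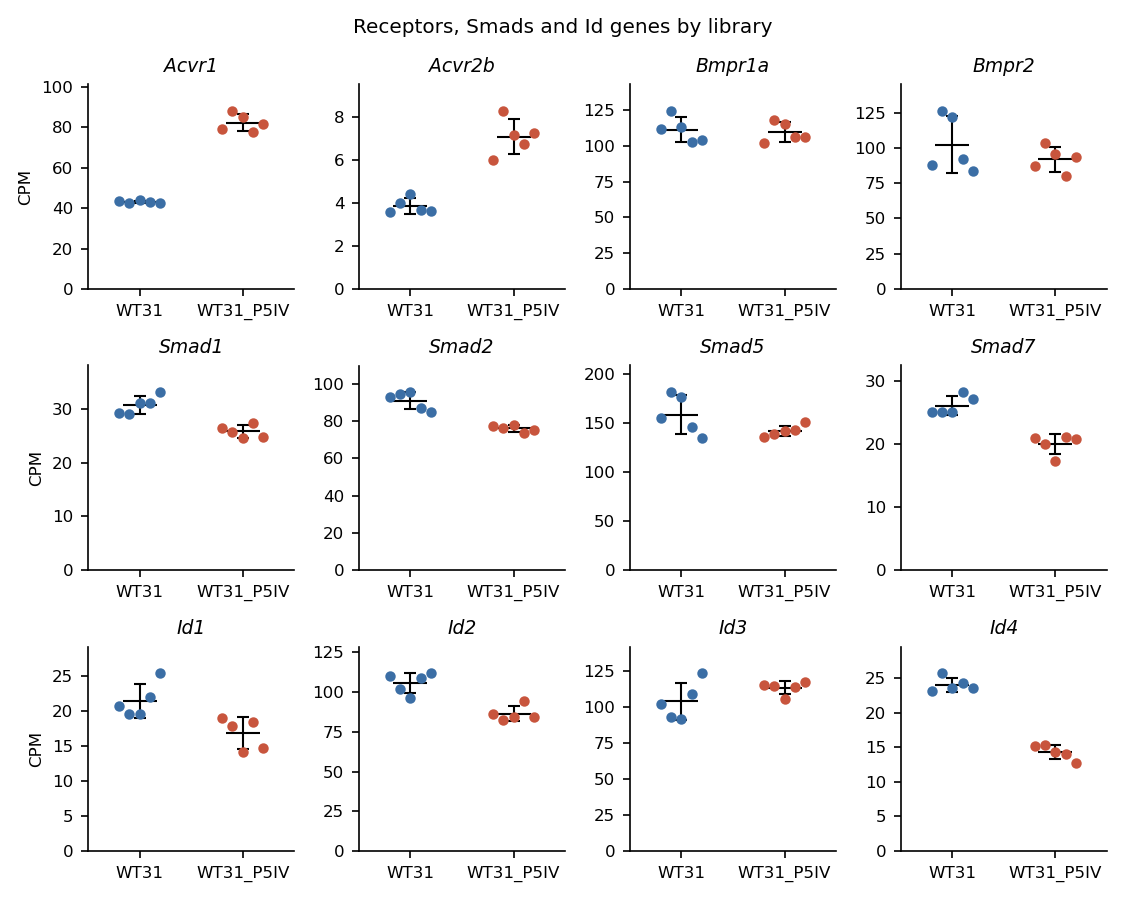
Level of 4 receptors, 4 Smads and 4 Id genes in CPM (y axes, each from 0) in the 5 libraries of WT31 and of WT31_P5IV (points), with mean and SD (bars). Acvr1, Acvr2b, Smad1, Smad2, Smad7, Id1, Id2 and Id4 show no overlap between groups, and in Bmpr2 and Smad5 the WT31 libraries 2 and 3 stand above the rest.

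Of the nuclear co-repressors, Skil, which binds Smads and is a target of the pathway that it inhibits, fell from 32.5 to 41.7 CPM to 28.1 to 30.7 CPM (log2 fold change -0.34, SE 0.06, adjusted p = 0.000254). Its homolog Ski, the more abundant per length, had 160, 155, 165, 162 and 163 CPM in WT31 and 171, 160, 165, 166 and 159 CPM in WT31_P5IV. These values were interleaved, and the 95% interval of the log2 fold change was -0.04 to 0.09. On the TPM scale Ski was called lower (-0.15), or 0.02 relative to the median shift. Smurf2, a ubiquitin ligase for Smads and receptors, had 73.4, 76.9, 76.6, 66.5 and 67.5 CPM in WT31 and 62.6, 62.7, 62.9, 61.7 and 65.7 CPM in WT31_P5IV. The highest WT31_P5IV library lay just below the lowest WT31 library, and the log2 fold change was -0.19 (SE 0.05, adjusted p = 0.00173). Smurf1 was the 1 called member whose groups overlapped, with 38.6 to 42.4 CPM against 41.1 to 46.4 CPM and a log2 fold change of 0.11 (adjusted p = 0.0376). Its call was lost under DESeq2, voom without scaling, a filter of 1 count and the replicate block, and when WT31 library 1, 2, 4 or 5 or WT31_P5IV library 1, 2 or 5 was left out. On the TPM scale its log2 fold change was -0.07, or 0.10 relative to the median shift. Groups did not overlap for 23 of the 35 tested members (65.7%), beside 54.1% of all tested genes.

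Other genes of the pathways were taken from lists of 112 genes, of which 67 had enough counts for a test, 24 were higher (35.8%) and 27 lower (40.3%), beside 34.6% and 33.9% of all tested genes. Some genes stood on more than 1 list. Of 10 other receptors and co-receptors, 6 were tested and 5 rose. These were Acvrl1, a type I receptor best known from endothelium (log2 fold change 0.93, SE 0.04, adjusted p = 2.19e-10), Neo1, a receptor that also serves repulsive guidance molecules (0.82, SE 0.06), the co-receptor Eng (0.74, SE 0.04) and the BMP co-receptors Rgma (0.34, SE 0.08) and Rgmb (0.32, SE 0.04). Acvrl1 and Eng stood at 54.9 to 58.0 CPM and 225 to 255 CPM in WT31 and at 98.5 to 116 CPM and 371 to 423 CPM in WT31_P5IV, while the endothelial markers summed to at most 0.841 CPM in any library. The decoy receptor Bambi did not pass.

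Of 24 other ligands, 5 had enough counts for a test. Inha, the alpha subunit of inhibins, rose from 0.416 to 0.825 CPM to 1.93 to 2.44 CPM (log2 fold change 1.71, SE 0.17, adjusted p = 4.93e-07), and Gdf15, a stress-induced cytokine, from 19.8 to 29.5 CPM to 43.8 to 58.7 CPM (1.10, SE 0.11, adjusted p = 3.46e-07). Bmp15, known as an oocyte factor, was counted at 23.7 to 28.2 CPM in WT31 and 34.2 to 39 CPM in WT31_P5IV (0.51, SE 0.06, adjusted p = 1.27e-06); gene-level counts do not show which part of the gene these reads cover. Of 17 other extracellular antagonists, 7 were tested. Biglycan (Bgn), a proteoglycan that binds TGF-beta and BMPs, rose from 0.510 to 1.02 CPM to 2.69 to 4.55 CPM (2.16, SE 0.19, adjusted p = 1.62e-07), and Crim1 rose (0.30, SE 0.05). Follistatin (Fst), which traps activins and Gdf11, fell (-0.55, SE 0.07, adjusted p = 7.93e-06), as did the BMP antagonist Nbl1 (-1.17, SE 0.33, adjusted p = 0.00584), whose groups overlapped.

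All 10 tested genes of latency, storage and activation were called, 6 higher (60%) and 4 lower (40%), beside 34.6% and 33.9% of all tested genes; whether the list differs from these shares was not tested. Lrrc32 and Nrros, which both hold latent TGF-beta at the cell surface, went opposite ways: Lrrc32 fell (log2 fold change -1.93, SE 0.31, adjusted p = 5.59e-05) from a low level of 0.475 to 1.10 CPM, and Nrros rose from 2.48 to 3.88 CPM to 6.13 to 8.26 CPM (1.20, SE 0.13, adjusted p = 1.07e-06). Emilin1, a matrix protein that restrains the processing of the TGF-beta precursor, fell from 33 to 38.1 CPM to 11.6 to 12.9 CPM (-1.53, SE 0.05, adjusted p = 6.43e-12). The BMP-activating protease Tll1 fell from 2.59 to 3.53 CPM to 0.505 to 0.826 CPM (-2.29, SE 0.16, adjusted p = 1.25e-08). The genes that rose included, named after their values were seen, its relative Bmp1 (0.64, SE 0.05), the TGF-beta activators Thbs1 (0.40, SE 0.05), Itgav (0.44, SE 0.08) and Itgb8 (0.46, SE 0.11), and Furin (0.41, SE 0.05), which cleaves the precursors. Fbn2, the last of the 4 genes that fell, went from 18.3 to 24.1 CPM to 14.3 to 15.2 CPM (-0.49, SE 0.08, adjusted p = 9.42e-05).

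TGF-beta target genes did not move one way. Of 18 tested TGF-beta targets 6 rose (33.3%) and 9 fell (50%), with a median log2 fold change of -0.22. Of 6 tested BMP targets 4 fell (66.7%) and 0 rose, with a median of -0.25. Among all tested genes 34.6% were called higher and 33.9% lower, with a median of 0.01, and whether the lists differ from these shares was not tested. Among the former, Snai2, a transcription factor of mesenchymal transition and of melanocytes, fell (-1.53, SE 0.09, adjusted p = 2.4e-09), and so did Ccn2, a matricellular protein that Yap also induces (-1.46, SE 0.07, adjusted p = 2.71e-10). Tgm2, a crosslinking enzyme, fell from a low level (-1.16, SE 0.22, adjusted p = 0.000281). Tgfbi fell from 5.26 to 6.88 CPM to 2.61 to 3.30 CPM (-1.06, SE 0.10, adjusted p = 2.34e-07). Acta2, smooth muscle actin, rose from 0.0757 to 0.475 CPM to 0.631 to 0.845 CPM (1.47, SE 0.32, adjusted p = 0.000969); it and Col1a1, another target that rose (1.00, SE 0.18, adjusted p = 0.000156), are also 2 of the 3 fibroblast and stellate cell markers that rose, and the part of such cells was not tested. Of the BMP targets, the Notch effector Hey2 (-1.89, SE 0.27, adjusted p = 1.95e-05), Smad9 (-0.72, SE 0.11), Runx2 (-0.34, SE 0.05) and Gata2 (-0.16, SE 0.05) fell. Words shared with other genes were 19.7% for Ccn2 and 20% for Tgm2.

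Intracellular regulators were all tested, and 4 of the 20 rose (20%) and 9 fell (45%), beside 34.6% and 33.9% of all tested genes. The largest change was that of Wwp1, a ubiquitin ligase of the Smurf family, which fell from 75.4 to 92.2 CPM to 40.3 to 42.5 CPM (-0.98, SE 0.05, adjusted p = 8.46e-10) and shares 9.79% of its words with another gene. Smad9, another BMP-regulated Smad, fell from 5.33 to 7.72 CPM to 3.22 to 3.88 CPM. The deubiquitinase Usp11 (0.59, SE 0.08) and Lemd3, an inner nuclear membrane protein that binds Smads (0.58, SE 0.07), rose.

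**Figure D5:**
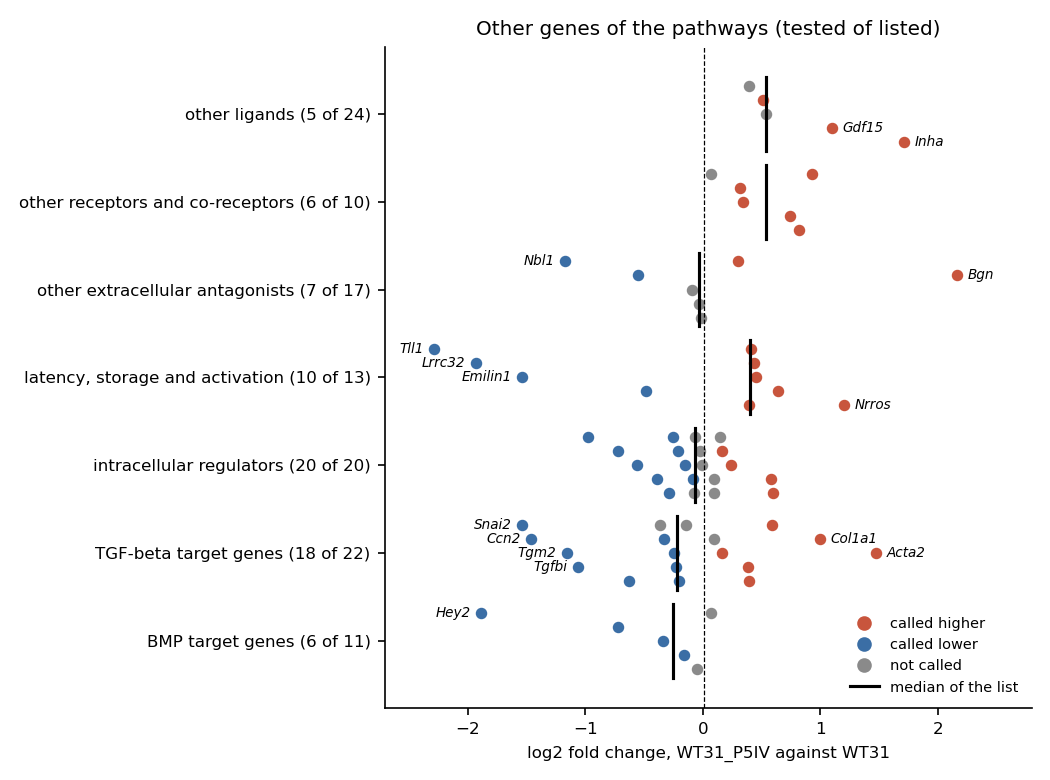
Log2 fold change of WT31_P5IV against WT31 (x axis) for the tested genes of 7 other lists of the pathways (y axis, with the number tested of the number listed). Points are genes called higher, called lower or not called, bars are list medians and the dashed line is the median of all tested genes; genes beyond 1 or -1 are named. The points of the receptors lie at or to the right of the dashed line, and 4 of 6 BMP targets were called lower.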

How the data were processed

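RNA was sequenced from 5 libraries each of WT31 and WT31_P5IV; the labels name instruments of 2 makers. According to the submitters' processing notes, reads were trimmed with Trim Galore 0.6.4 and quantified with kallisto (its version differs between the notes and the study's methods) on GRCm38.p6; the release of the annotation is not given in the sources used here. The authors deposited estimated counts and TPM per gene. Of the identifiers, 55144 matched GENCODE M21, which gave symbols and positions. Estimated counts were rounded, kept by filterByExpr, scaled by TMM and tested with glmQLFTest in edgeR 4.0.16 (R 4.3.3), and p-values of all tested genes were adjusted by Benjamini-Hochberg; SE is the log2 fold change over the root of F. CPM are on TMM-scaled library sizes. The fit was tested on simulated data. Alternatives were DESeq2 1.42.0, limma 3.58.1 (voom, and log2 of TPM + 0.1 or + 1), other filters, glmTreat against a 2-fold change, a replicate block and leaving out libraries. Scripts ran under Python 3.11.15. Members and lists were chosen with earlier results of these data known. Values by library were given for members past a log2 fold change of 1 and for the most abundant tested member of each role with 2 or more members. The rule for other lists named up to 4 called genes with the largest changes. Bambi, Rgmb, Col1a1, Tgfbi, Bmp1, Thbs1, Itgav, Itgb8, Furin and Fbn2 were added after their values were seen. Values of some listed genes are not reported here.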

Additional observations from a re-analysis of the deposited data

Results flagged for a closer look

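In WT31_P5IV library 3, Smad7 stood at 17.3 CPM, below the other 4 libraries of its group at 20.03 to 21.1 CPM, and its gap was 0.716 of the range of the group. In the same library Id3 stood at 106 CPM, below the other 4 at 114 to 117 CPM, with a gap of 0.743 of the range. These were the 2 values past Dixon's 95% limit among 70 groups of 5 libraries examined, and chance gives about 1 in 20. Leaving the library out did not change whether either gene passed the test.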

How the results depend on the processing

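The number of members called higher or lower was 24, and 23 to 26 when 1 library was left out; members called higher were 13 (12 to 14) and members called lower 11 (11 to 13). The replicate block gave 25 calls, losing Smurf1 and gaining Tgfbr1 and Id3; same-numbered libraries correlated above 0.1 in 2 of 5 pairs, so the numbers were not taken as a pairing. With glmTreat against a 2-fold change, 3 members were called, 1 higher and 2 lower. On log2(TPM + 0.1) and log2(TPM + 1), members called lower were 18 and 19, and the median log2 fold change of the tested members was -0.19 and -0.18, against -0.06 on counts and 0.01 without WT31 libraries 2 and 3, a setting chosen after seeing the data. On log2(TPM + 0.1) the log2 fold changes of all tested genes were shifted by a median of -0.17 against counts. Members past a log2 fold change of 1 in either direction numbered 3 in the edgeR test with filterByExpr. Among the other settings, the number was 1 where at least 10 counts in every library were required, since Bmp4 and Inhba were then not tested.

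Directions reversed for genes with small changes. In the fits on TPM (+ 0.1, then + 1) the log2 fold changes were -0.0126 and -0.0126 for Tgfbr1, -0.0082 and -0.0081 for Ltbp3, -0.148 and -0.145 for Ski, -0.0696 and -0.0649 for Smurf1, and -0.103 and -0.0946 for Bambi. With voom without scaling Ski was -0.0405 and Bambi -0.00029, and Ski was -0.0256 with every gene of at least 1 count. Bmpr1a ranged from -0.0613 to 0.0114 when single libraries were left out. Without WT31 libraries 2 and 3 it was 0.0322, and Bmpr2 was 0.049. The cause of these reversals was not tested. Depth limits the size of the decreases of Bmp4 and Inhba, whose counts in WT31_P5IV lie near or under 3, and the 4 untested members, which have at most 3 counts in any library.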
